A study of Mus musculus with 2 samples.

Results

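The genes described here are 38 autosomal DNA repair genes of the mouse, the Fanconi anemia genes and the genes of homologous recombination with their checkpoint kinases and partner nucleases. They were taken from a list of names by their known role, with no measured value in the rule, and all 38 were found among 20665 autosomal protein-coding genes. H3K4me3, the trimethylated lysine of histone H3 that marks active and poised promoters, was mapped by CUT&RUN, in which an antibody directs a nuclease to chromatin. The cells were mouse prospermatogonia, fetal precursors of the spermatogonia, sorted on an Oct-GFP reporter at E17.5, with 130000 cells per assay. They were bound to concanavalin A beads and permeabilized with digitonin, and the labels give no other allele, strain or treatment. There was 1 H3K4me3 library and 1 rabbit IgG library. The peaks called in the H3K4me3 library are the only values used here, so no value has a replicate and no test between groups was possible.

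Fanconi proteins recognise a replication fork that is stalled at a crosslink between the DNA strands. A core complex of several subunits attaches ubiquitin to the FANCD2 and FANCI proteins, which opens the way for nucleases that cut the crosslink out. The broken end is then repaired by homologous recombination, in which BRCA1, PALB2 and BRCA2 load a recombinase on single-stranded DNA that first carries the RPA complex. These genes are used by dividing cells of all kinds, and the same machinery later serves crossing over in meiosis and the expansion of germ cells before it.

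The list held 135064 peaks with a median width of 572 bp, a median fold enrichment of 6.0 and a median of 27 fragments at the summit. Fold enrichment is the authors' value per peak, the height of the summit over the local background, and the summit pileup, the number of fragments stacked there, was worked back from that fold together with the −log10 p-value. Intervals are 95% exact Poisson intervals on the pileup, with the background taken as fixed, and they cover counting error only. In 1 bulk library, fewer cells with the mark and less mark per cell cannot be told apart. Of 12 male germ cell markers 10 had a peak at an end (83.3%, Wilson interval 55.2 to 95.3, beside 74.4% of all autosomal protein-coding genes), among them Ddx4 and Dazl, and Nanos2 and Nanos3 had none. Of 6 Leydig markers 2 had one (33.3%, 9.68 to 70), Cyp11a1 with 51 fragments and Lhcgr with 41. Cyp17a1, Hsd3b1, Insl3 and Star had none there or inside. Sertoli markers had one in 6 of 7 cases (85.7%, 48.7 to 97.4), all but Gata4, which had 14 peaks inside. Endothelial and blood markers had one in 4 of 7 (57.1%, 25 to 84.2). Pecam1, Cdh5 and Ptprc, without one, had 1, 1 and 6 peaks inside. The germ cell, Sertoli, and endothelial and blood intervals include the share of all genes. The Leydig interval, over 6 genes, lies below that share. These counts say little about which cells the library holds. The part of such cells in the peaks of repair genes was not tested.

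All 38 repair genes carried H3K4me3 at an annotated end. Within 1000 bp of an end, 38 of 38 genes had a peak (100%, Wilson interval 90.8 to 100), beside 74.4% of all autosomal protein-coding genes. The summit pileup of the highest end peak ranged from 31 to 58 fragments, with a median of 43, and the median of all genes with an end peak was 42. At least 20 fragments were thus reached by all 38, beside 72.7% of all genes. The interval of the pileup included that 42 in 37 of 38 genes, and only Wrn lay above it. More of the repair genes than of all genes were marked, and the marked genes had similar heights. Their highest end fold had a median of 6.43, from 3.39 to 9.22, against 6.18 in all genes with an end peak. The widest end peak had a median of 1309.5 bp against 1188 bp. A fold of at least 5 was reached by 32 repair genes (84.2%, Wilson interval 69.6 to 92.6), beside 57.1% of all genes. The 72.7% and 57.1% count genes without an end peak as missed. Of the 15385 genes with an end peak, 15018 reached 20 fragments and 11802 a fold of 5.

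**Figure D1:**
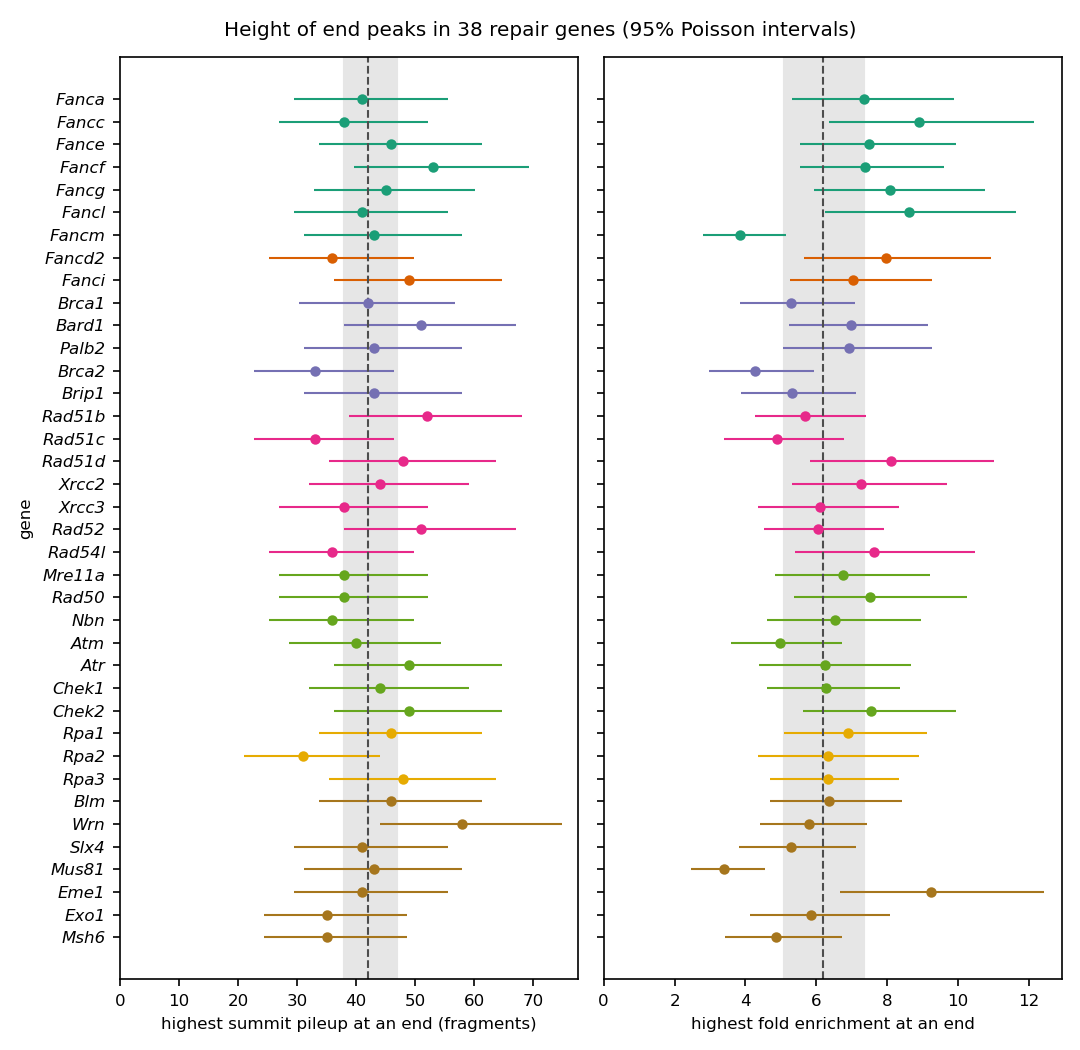
Highest summit pileup (left, fragments) and highest fold enrichment (right) among the end peaks of each of 38 repair genes, coloured by role, with 95% Poisson intervals. The dashed line and grey band are the median and the middle 50% of all autosomal protein-coding genes with an end peak; pileups sit between 31 and 58 around a median of 42 for all genes, and folds spread from 3.39 for Mus81 to 9.22 for Eme1.

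The promoters of the repair genes were rich in CpG. The set of RefSeq promoters used here did not cover all genes. It held a start and a promoter of 300 bases (250 before the start and 50 from it, build GRCm38.p6) for 31 of the 38 genes. No entry was used for Fancd2, Rad51d, Xrcc2, Rad50, Nbn, Wrn and Exo1. The CpG ratio, the observed number of CpG dinucleotides over that expected from the C and G content, had a median of 0.896 in the 31 promoters and 0.595 in all 16457 listed promoters of autosomal protein-coding genes. It was at least 0.6 in 27 of 31 repair genes (87.1%, Wilson interval 71.1 to 94.9) and in 49.7% of all. A peak lay within 1 kb of a listed start in 30 of 31 repair genes, beside 73.3% of all genes with a listed start. Any listed start of a gene counted for this, while the CpG ratio and coverage belong to the first. Among promoters with a ratio of at least 0.6, all 27 repair genes had such a peak, and so did 99.3% of all genes. The count of marked repair genes is thus near the background of CpG-rich promoters. Peaks covered a median of 1467 of the 2000 bp around those 27 starts, and 1425 bp in all CpG-rich genes.

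The 4 repair promoters below that ratio were those of Fancl, Slx4, Mus81 and Rad54l. Fancl, which encodes the ubiquitin ligase of the core complex, had the lowest ratio of 0.182 and still carried a peak of 936 bp over its start. Rad54l, a DNA translocase that acts with the recombinase, had a ratio of 0.535 and a peak of 1328 bp. Mus81 had a ratio of 0.342 and peaks on either side of its start, none over it. Slx4, at 0.313, was the only gene with no peak within 1 kb of its listed start. The Slx4 ratio belongs to a listed start inside the gene. Its annotated end, which carried a peak of 1252 bp, had no ratio measured. Low CpG content at the listed start thus accompanied both the gene without a peak there and 3 genes with one.

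**Figure D2:**
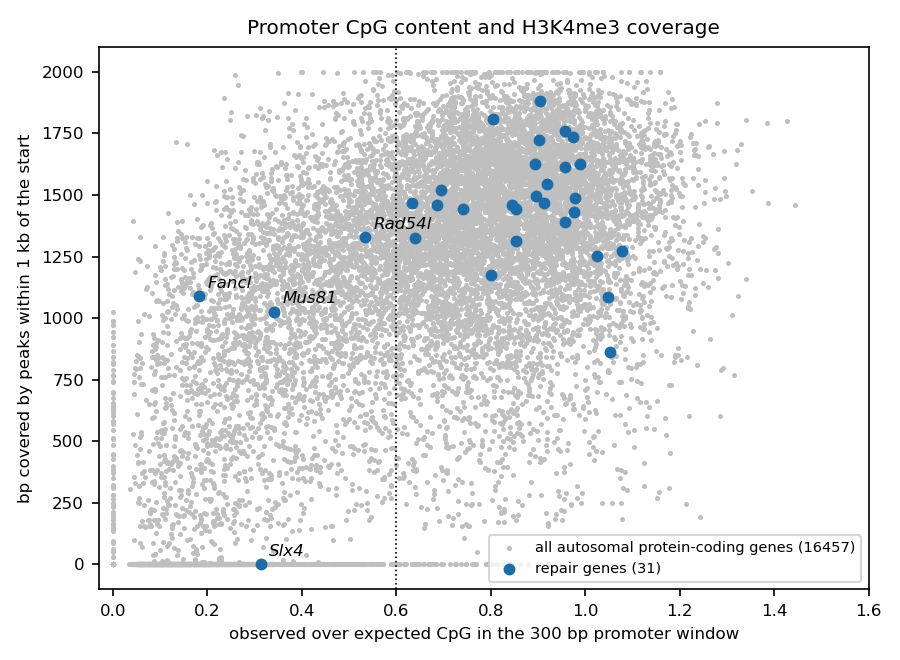
Observed over expected CpG in the 300 bp promoter window (x axis) against the bp covered by peaks within 1 kb of the listed start (y axis), for 31 repair genes (blue) and all 16457 autosomal protein-coding genes with a listed promoter (grey). The dotted line marks a ratio of 0.6; 27 repair genes lie to its right, and Slx4 lies at 0 bp.

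Promoter sequence is shown for the genes that stand at the edges of these measures. Each line gives the 250 bases before the listed start, read 5′ to 3′ on the strand of the gene, from RefSeq on GRCm38.p6. Eme1 had the highest end fold and the nearest opposite start, Atm the widest peak, Brca1 a peak shared with a neighbour, and Slx4 no peak by its listed start. Capitals mark matches to the motifs that are spelled out further on.
Eme1, chr11:94653744-94653993, minus strand: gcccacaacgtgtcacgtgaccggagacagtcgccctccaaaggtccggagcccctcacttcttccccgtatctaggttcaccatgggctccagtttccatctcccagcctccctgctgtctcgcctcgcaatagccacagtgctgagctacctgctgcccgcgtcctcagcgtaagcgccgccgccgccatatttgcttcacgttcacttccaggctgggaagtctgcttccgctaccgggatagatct
Atm, chr9:53536672-53536921, minus strand: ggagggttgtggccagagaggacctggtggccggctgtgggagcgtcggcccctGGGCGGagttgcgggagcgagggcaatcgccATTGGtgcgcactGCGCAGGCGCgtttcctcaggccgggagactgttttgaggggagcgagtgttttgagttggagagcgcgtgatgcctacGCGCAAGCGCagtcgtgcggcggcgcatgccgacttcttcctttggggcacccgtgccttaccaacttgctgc
Brca1, chr11:101551956-101552205, minus strand: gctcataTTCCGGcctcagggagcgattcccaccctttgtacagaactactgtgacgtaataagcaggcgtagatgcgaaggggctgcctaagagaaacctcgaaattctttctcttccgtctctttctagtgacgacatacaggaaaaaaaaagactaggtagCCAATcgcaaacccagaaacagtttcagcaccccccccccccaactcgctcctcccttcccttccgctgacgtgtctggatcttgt
Slx4, chr16:4001679-4001928, minus strand: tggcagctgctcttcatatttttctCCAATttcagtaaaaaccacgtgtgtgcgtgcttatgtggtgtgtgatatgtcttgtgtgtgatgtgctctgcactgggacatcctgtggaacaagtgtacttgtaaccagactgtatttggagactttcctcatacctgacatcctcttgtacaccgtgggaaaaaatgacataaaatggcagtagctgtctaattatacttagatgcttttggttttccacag
The search ran over 300 bases, so matches in the 50 bases from the start are not in these lines. The printed Eme1 bases held no match, and its last 50 bases held an ETS motif and the element TTTGAA, both on the opposite strand. The printed Atm bases held a CCAAT box on the opposite strand (ATTGG), a GC box and 2 NRF1 motifs, and its last 50 an ETS motif and a TATA box. The printed Brca1 bases held a CCAAT box and an ETS motif. Those of Slx4 held a CCAAT box, and its last 50 a TATA box. GC content over the 300 bases was 41.3% for Slx4, 53.7% for Brca1, 60% for Eme1 and 64% for Atm.

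Peaks sat over the starts of nearly all repair genes. The listed start lay inside a peak in 29 of 31 genes (93.5%, Wilson interval 79.3 to 98.2), beside 58% of all genes. A single peak spanned the region in 17 genes, 12 genes had 2 peaks there, and Brip1 had 3. The summit of the highest of these peaks lay upstream of the start in 15 genes and downstream in 15, at a median distance of 275 bp. At 250 bp upstream of the start 90.3% of repair genes were covered, beside 56.6% of all and 85.3% of CpG-rich genes. At 250 bp downstream it was 87.1%, beside 57.9% and 81.2%, so both values are near those of CpG-rich genes. At 1250 bp downstream 3.23% were covered, against 18.8% of CpG-rich genes, and at 1250 bp upstream 16.1%, against 9.87%. With 31 genes, 1 gene makes 3.23%, so these differences at the flanks rest on few genes.

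**Figure D3:**
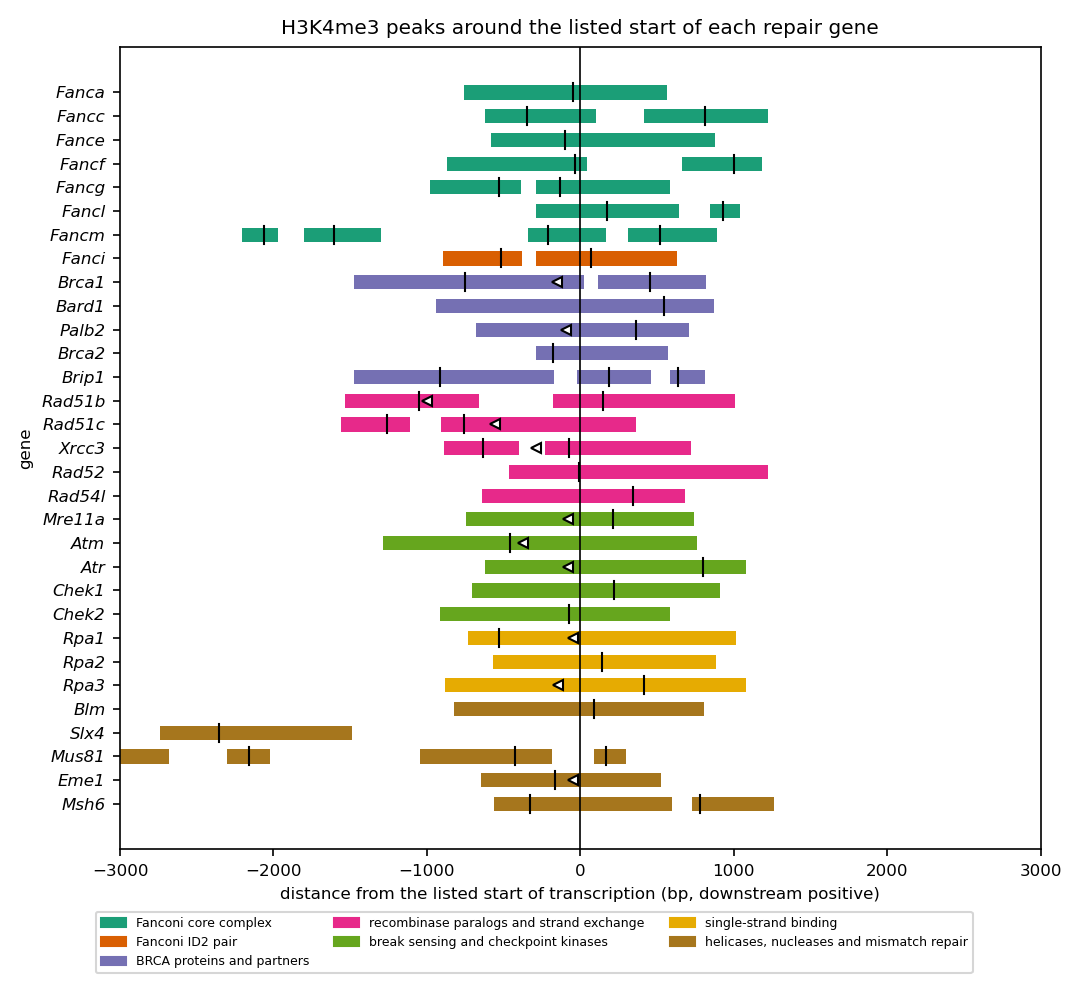
Peaks (bars) within 3000 bp of the listed start of 31 repair genes, with summits as black ticks, distance from the start in bp on the x axis and 1 row per gene, coloured by role. White arrowheads mark the start of a protein-coding gene on the opposite strand within 1 kb upstream; bars cross 0 in 29 genes, and not in Slx4 and Mus81.

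**Figure D4:**
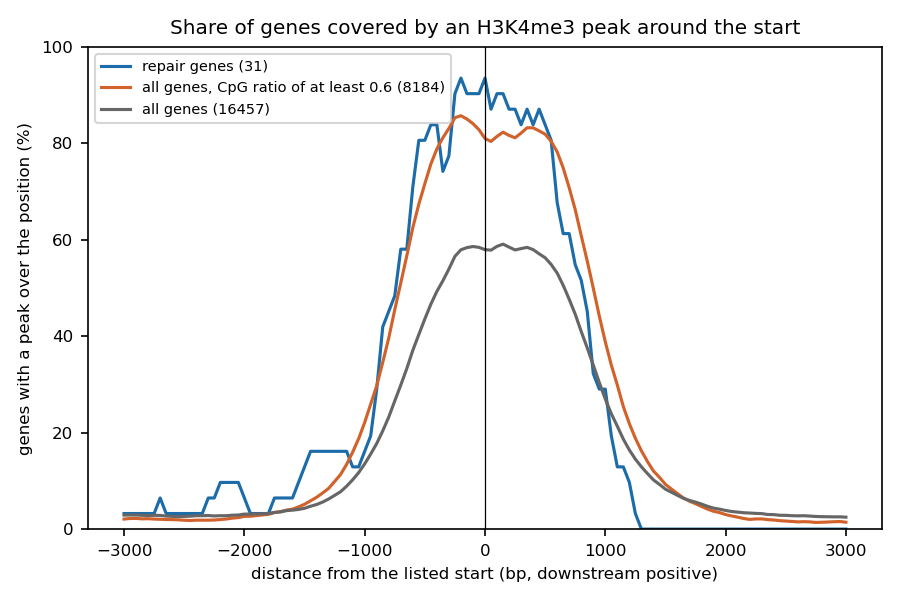
Share of genes with an H3K4me3 peak over each position (y axis, %) by distance from the listed start (x axis, bp, every 50 bp), for 31 repair genes, 8184 genes with a CpG ratio of at least 0.6 and 16457 genes with a listed start. At the start the share was 93.5% for repair genes, 81% for CpG-rich genes and 58% for all genes.

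Shared promoters were common among the repair genes. A start of another protein-coding gene on the opposite strand lay within 1 kb upstream in 11 of 31 genes (35.5%, Wilson interval 21.1 to 53.1), beside 8.7% of all genes. Of the 8126 CpG-rich genes with a start peak, 1272 had such an opposite start, a larger share than among all genes. A peak over a shared promoter cannot be assigned to either gene. The starts were 48 bp apart for Eme1 and Mrpl27, 50 bp for Rpa1 and Smyd4, 80 bp for Atr and 1700065D16Rik, and 81 bp for Mre11a and Ankrd49. Palb2 and Dctn5 were 95 bp apart, Rpa3 and Umad1 147 bp, Brca1 and Nbr1 152 bp, and Xrcc3 and Zfyve21 291 bp. Larger gaps separated Atm from Npat (376 bp), Rad51c from Tex14 (559 bp) and Rad51b from Zfyve26 (1000 bp). Npat encodes a coactivator of histone genes in S phase, and Tex14 encodes a protein of the bridges that join male germ cells.

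In the 11 shared promoters, peaks covered a median of 735 bp in the 1000 bp upstream and 740 bp downstream of the start. In the 19 other marked repair promoters the medians were 703 and 693 bp, and in both kinds the 2 sides were of similar length. Over all marked genes, median coverage upstream was 830 bp with an opposite start and 546 bp without, and downstream 721 and 759 bp. In marked CpG-rich genes the upstream medians were 838 and 635 bp. Marked here means a peak within 1 kb of any listed start, and coverage was measured at the first. Some of all marked genes thus had 0 bp covered, while the smallest upstream value in marked repair genes was 287 bp. The medians of all genes and of repair genes are therefore not fully comparable. The median pileup was 41 fragments in the shared and 44 in the other repair promoters. By the wider measure of any protein-coding gene end within 1 kb of an end, 22 of 38 repair genes had a neighbour (57.9%, Wilson interval 42.2 to 72.1), beside 25.6% of all genes. In 18 of the 38, an end or start peak lay within 1 kb of that neighbour's end. Beyond the 11 above, these were Fanci with Rlbp1, Fancf with Gas2, Chek2 with Hscb, Fancd2 with Emc3, Fancm with Fkbp3, Rad51d with Rffl and Wrn with Purg. The 16 repair genes without such a neighbour were all marked, with a median end fold of 6.75 and a median pileup of 42.

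The core complex genes had a median end fold of 7.49 over 7 genes, and their pileups ranged from 38 to 53 fragments. All but Fancm had a fold between 7.34 and 8.90. Fanca, a core subunit, had 1 peak of 1325 bp on chromosome 8 from 123318009 to 123319333, with 41 fragments (29.4 to 55.6) and a fold of 7.34. Fance had 46 fragments over 1458 bp with a fold of 7.49, and Fancg 45 fragments over 870 bp with a fold of 8.08. Fancl had 41 fragments and a fold of 8.62 (6.25 to 11.6). These subunits had similar heights, and their intervals overlapped. Fancf, a short gene, had its higher peak inside the gene, 660 to 1183 bp past the start, with 53 fragments against 31 in the peak over the start. Within 500 bp of an end its fold was 4.34 in place of 7.36.

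Fancm and Fancc were marked both at their outermost annotated end and at a listed start inside the gene. Fancm encodes the translocase that anchors the core complex to DNA. Its peaks by the annotated end, which lies near Fkbp3, had 29 and 43 fragments, and those by its listed start 36 and 42. The highest end fold was 3.85 (2.81 to 5.16), below the median of all genes, beside a local background of 10.4 fragments. The listed start of Fancc, whose product is a core subunit, carried peaks of 48 and 40 fragments with folds of 6.40 and 5.31. The peak at its outermost end, from 63496507 to 63497566 on chromosome 13, had 38 fragments and a fold of 8.90 (6.37 to 12.1), and lay 64762 to 65821 bp upstream of the listed start. A further 3 peaks lay between these positions, with 17, 16 and 49 fragments.

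Fancd2 and Fanci, whose products form the clamp that receives ubiquitin, were both marked. Fancd2 had 1 peak of 1338 bp with 36 fragments (25.2 to 49.8) and a fold of 7.96, within 1 kb of the end of Emc3. Fanci had 49 fragments (36.3 to 64.8) over its start and a smaller peak of 32 fragments upstream, toward Rlbp1. The intervals of the higher peaks overlapped.

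The widest end peak of the 5 BRCA genes ran from 861 to 1809 bp, and their pileups from 33 to 51 fragments. Brca1 and Bard1 encode the subunits of a ubiquitin ligase, Palb2 links it to Brca2, Brca2 loads the recombinase, and Brip1 is a helicase that binds BRCA1. Bard1 had 1 peak of 1809 bp with 51 fragments (37.97 to 67.06) and a fold of 6.98. Palb2 had 43 fragments over 1389 bp, in a peak that also covers the start of Dctn5. Brca1 had peaks of 1497 bp with 42 fragments, reaching over the Nbr1 start, and of 701 bp with 34 fragments inside the gene. Brca2 had the narrowest of these marks. Its only peak, 861 bp on chromosome 5 from 150522334 to 150523194, had 33 fragments (22.7 to 46.3) and a fold of 4.27 (2.98 to 5.94), below the median of all genes. Its 861 bp was also the smallest domain of the 38 genes, where a domain is a run of peaks joined over gaps of up to 1000 bp. Brip1 had 3 peaks at its start with 23, 43 and 37 fragments, of which that with 43 covers the start.

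The recombinase paralogs and the strand exchange factors were all marked, with pileups from 33 to 52. Rad51b, Rad51c, Rad51d, Xrcc2 and Xrcc3 encode paralogs that assist the recombinase, Rad52 anneals single strands, and Rad54l moves along DNA with the filament. Rad51c was lowest, with 33 fragments (22.7 to 46.3) over 1272 bp, in a peak shared with Tex14. Rad51b was highest, with 52 fragments (38.8 to 68.2), but that peak lay 662 to 1532 bp upstream and reaches the Zfyve26 start, and the peak over its own start had 42. Rad51d had 39 fragments and a fold of 8.11 at the end without a coding neighbour, and 40 to 48 fragments in 3 peaks at the end near Rffl. Its strand is not used here, so the promoter was not assigned. Xrcc2 had 44, Xrcc3 38, Rad54l 36 and Rad52 51 fragments. The Rad52 peak, 1695 bp wide, lay over the listed start and began inside the gene, past its annotated end.

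The genes of break sensors and checkpoint kinases were all marked at a listed start or an end. MRE11A, RAD50 and NBN form the complex that binds broken ends, ATM and ATR are the kinases called by breaks and by RPA-coated DNA, and CHEK1 and CHEK2 pass the signal to the cell cycle. The widest end peak of these 7 genes had a median of 1496 bp, with pileups from 36 to 49. Atm had the widest peak of the 38 genes, 2050 bp on chromosome 9 from 53535911 to 53537960, with 40 fragments (28.6 to 54.5) and a fold of 4.98, and it also covers the Npat start. Atr had 34 fragments over 1704 bp at its start, and peaks of 48 and 49 fragments at its far end, which lies by Xrn1. Chek1 had 44 fragments over 1612 bp and Chek2 49 over 1496 bp. Mre11a and Rad50 each had 38 fragments, and Nbn had 36 in a peak of 1140 bp and 21 in a narrow peak over its annotated end. The fold of Nbn was 6.52, and 3.80 where the summit had to lie within the window. The intervals of the 3 complex genes overlapped.

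The RPA genes encode the subunits of the complex that coats single-stranded DNA. Each had a single wide peak over its start, of 1751 bp for Rpa1, 1459 bp for Rpa2 and 1962 bp for Rpa3, and these widths lay above the median of the 38 genes. Rpa1 had 46 and Rpa3 48 fragments, both in shared promoters. Rpa2, with no opposite start, had 31 (21.1 to 44.0), the lowest highest-peak pileup of the list, and its interval overlapped those of the other subunits. Their folds were 6.88, 6.32 and 6.33 in that order.

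Mus81 and Eme1, whose products form 1 endonuclease, stood at opposite ends of the list by fold and side by side by pileup. Mus81 had 43 fragments (31.1 to 57.9) and Eme1 41 (29.4 to 55.6). The fold was 3.39 (2.48 to 4.54) for Mus81 and 9.22 (6.68 to 12.43) for Eme1, and these intervals did not overlap. With windows of 2500 bp, Brip1 had a highest end fold of 10.6 in place of 5.32, above that of Eme1. Local background was 11.98 fragments at Mus81 and 3.56 at Eme1. A further 2 peaks of 36 and 45 fragments lay 2023 to 3445 bp upstream of Mus81, in a domain of 3744 bp, the widest at any of the 38 genes. Across the 38 genes, the fold of the highest-fold end peak and its background had a Spearman correlation of -0.79, and the pileup and the background 0.49. Fold is computed from the background, and all points come from 1 library. Whether nearby H3K4me3 peaks add to the local background, and so lower the fold, was not tested.

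Blm and Wrn encode RecQ helicases. Blm had 1 start peak of 1627 bp with 46 fragments. Wrn had the highest end pileup of the list, 58 fragments (44.0 to 74.98), in a peak outside its annotated end, by Purg, and 49 in the peak over that end. Exo1, an exonuclease that widens single-stranded regions, had 35 fragments over 1316 bp. Msh6, which recognises mismatches, also had 35, over 1161 bp, with a further peak of 29. Slx4, a scaffold for several nucleases, had 41 fragments over 1252 bp at its outermost annotated end. That peak lay 1490 to 2741 bp upstream of the listed start whose sequence is printed above. Taking the highest end peak of each gene, all intervals but that of Wrn included the 42 fragments of all marked genes.

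**Figure D5:**
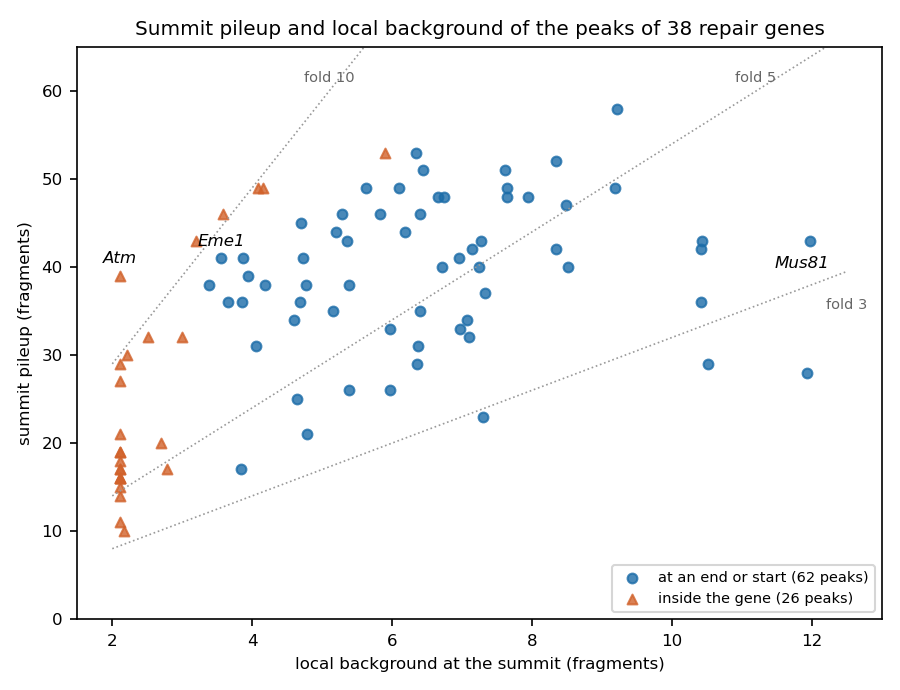
Summit pileup (y axis, fragments) against local background (x axis, fragments) of the 62 end or start peaks (circles) and 26 inside peaks (triangles) of 38 repair genes; dotted lines join equal folds of 3, 5 and 10. Mus81 and Eme1 lie at similar pileups and far apart in background, and inside peaks gather at the lowest background of 2.11 fragments.

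Wide domains were found at 10 repair genes (26.3%, Wilson interval 15 to 42), beside 19.2% of all genes, which lies within that interval. The count depended on the definition: with peaks joined over 3000 bp it was 2 genes, beside 11.5% of all genes, and with the widest 2% it was 4, beside 8.2%. A domain was wide when among the widest 5% of the list, 2001 bp or more. The 10 genes were Fancf, Fancm, Brca1, Brip1, Rad51b, Rad51d, Atm, Atr, Wrn and Mus81. Only at Atm was it 1 peak, and at Atr it lay at the far end, by Xrn1. Among CpG-rich promoters 25.9% of repair genes and 29.5% of all genes had a wide domain. Both ends were marked in 3 genes, Fancf, Rad51d and Atr (7.89%, beside 13.6% of all genes), and Fancf is so short that 1 peak met both windows.

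Peaks inside a gene, away from its ends and listed start, numbered 26 in 9 repair genes. These are 23.7% of the genes (Wilson interval 13 to 39.2), beside 36.6% of all genes, which lies within that interval. Per Mb of gene body this was 11.5 peaks (7.50 to 16.8), against 27.6 over all genes. That interval takes peaks as independent, but 6 lay in Wrn and 5 in Rad51b, and some lay close together. It is therefore too narrow to judge the difference, which was not tested. For genes with no listed start, in both sets, a peak at a start within the gene counted as inside. Inside peaks were lower and narrower, with a median of 19.5 fragments over 562 bp, against 40.5 fragments over 1030 bp for the 62 end or start peaks. Their median fold was still higher, 6.42 against 5.67, beside a background of 2.11 against 6.38 fragments. In 7 of the 9 genes, Fancc, Fancl, Brip1, Rad51b, Wrn, Atm and Chek2, the highest fold of the gene lay inside.

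A few inside peaks stood as high as end peaks. A peak of 452 bp inside Atm, 28238 to 28689 bp past the start, had 39 fragments and a fold of 12.8 (9.23 to 17.4), above that of every end peak of the list. It is narrow, and neither the IgG library nor repeat content was used to check it. Fancl held a peak of 1092 bp with 43 fragments and a fold of 10.5 (7.66 to 14.1). Rad51b, the longest gene of the list, held 5 inside peaks, of which those with 46 and 49 fragments had folds of 10.2 and 9.70. Wrn held 6, the highest with 53 fragments over 1416 bp. The other inside peaks were mostly low, and 15 of the 26 had 21 fragments or fewer. Whether any marks an unlisted start was not tested.

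Letters known to bind promoter factors were searched in the 300 bases of the 31 listed promoters, on both strands. A match is a description of the sequence and not of binding. E2F factors drive genes of S phase, and their motif was searched as TTTCCCGC, TTTCGCGC, TTTGCCGC and TTTGGCGC. It was found in 6 of 31 repair promoters (19.4%, Wilson interval 9.19 to 36.3), and in 2.92% of all 16457 promoters and 4.95% of those with a CpG ratio of at least 0.6. The 6 matches are shown with their surroundings as 30 bases on the strand of the gene, with the match in capitals, because this share differed from that of all promoters by the largest ratio among the motifs searched.
Bard1, chr1:71103163-71103192, minus strand: ccgccgctcagTTTCCCGCtcaggaagttt
Fancg, chr4:43010335-43010364, minus strand: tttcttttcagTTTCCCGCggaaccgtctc
Chek2, chr5:110839820-110839849, plus strand: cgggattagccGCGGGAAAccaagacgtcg
Brca2, chr5:150522442-150522471, plus strand: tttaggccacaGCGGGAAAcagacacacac
Rad51c, chr11:87404477-87404506, minus strand: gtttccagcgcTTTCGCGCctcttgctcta
Msh6, chr17:87975054-87975083, plus strand: ctcctcccgacTTTCCCGCcagcggcggcc
The matches of Bard1, Fancg, Chek2 and Brca2 lay before the start, from 209 to 45 bp upstream, and those of Rad51c and Msh6 within 22 bp after it. In Chek2 and Brca2 the motif reads on the opposite strand, as GCGGGAAA. These 6 genes had end pileups of 51, 45, 49, 33, 33 and 35 fragments in the order printed, which spans most of the range of the list.

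The CCAAT box, bound by NF-Y, was found in 20 of 31 repair promoters (64.5%, Wilson interval 46.9 to 78.9) and in 38.9% of all and 37.6% of CpG-rich promoters. CCGGAA, the core of ETS sites, was in 14 (45.2%, 29.2 to 62.2), against 19.5% of all and 31.1% of CpG-rich promoters. The GC box GGGCGG was in 61.3%, against 47.3% of all and 74.4% of CpG-rich promoters. The palindromic NRF1 motif was in 2 of 31 (6.45%), against 6.81% of all and 12.9% of CpG-rich promoters. TTTGAA, an element of cell cycle promoters, was in 6.45%, against 15.8% of all and 9.9% of CpG-rich promoters. The CRE TGACGTCA was in 6.45%, against 2.42% and 3.97%. TATAAA was in 9.68%, below the 13.5% of all and above the 5.83% of CpG-rich promoters. The ZBTB33 palindrome was in Mre11a alone (3.23%, against 0.711% of all and 1.33% of CpG-rich promoters). Matches of different motifs overlapped in 1 promoter, that of Brip1. Many motifs were compared over 31 promoters, and the shares are given with no test.

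Other genes of the same pathways carried the mark about as often. Of 36 further Fanconi and recombination genes, 34 had a peak at an end (94.4%, Wilson interval 81.9 to 98.5), with 74.4% of all genes as background. Their median end fold, with the unmarked genes at 0, was 6.35, their median pileup 41.5 fragments and their median width 1317 bp, close to the 6.43, 43 and 1309.5 bp of the 38 genes. Rnf168, a ubiquitin ligase of chromatin at breaks, had the highest pileup with 60 fragments, and Babam1, a subunit of a BRCA1 complex, had 56. Faap20, a partner of the core complex, had no peak at an end or inside. Rbbp8, which starts the trimming of broken ends, had none at an end and 4 inside.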

How the data were processed

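H3K4me3 CUT&RUN peaks of 1 library were analysed, and values of the IgG library are not used here. MACS2 2.1.0, Bowtie2 2.5.0, deepTools 3.5.1, bedtools 2.27.1, SAMtools 1.16.1 and Trim Galore, with the builds mm10 and sacCer3, are named per the submitters' processing notes. What each did, and with which settings, is not stated there. For each peak the authors deposited a fold enrichment (a ratio to local background), a −log10 p, a −log10 q and a score, which equals 10 times the −log10 q without decimals in nearly all peaks. Depth is known only from pileups, since no source used here gives a fragment total.

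Pileup was solved as a whole number from the Poisson tail and the fold, read as (pileup + 1) / (background + 1), in 135054 of 135064 peaks within 0.0001 of the −log10 p. Whether the IgG library served as background is not given. Gene extents and promoter sequences came from RefSeq tables of GRCm38.p6, the build of mm10. Windows were 1000 bp either side of an end. The first listed start of a gene was used for distances, coverage, the CpG ratio and whether the start lay inside a peak. A start peak was counted within 1 kb of any listed start of the gene. An opposite start could overlap by up to 200 bp. The members, gene lists, motifs and named genes (all members, neighbours of their peaks, the 2 list genes of highest pileup and those without an end peak) were chosen with earlier results of these data known, and 1 gene so named is not reported here. Sequences of Brca1 and the E2F matches were chosen after values were seen. On simulated data, 4950 of 4950 pileups and 200 of 200 planted genes among 20665 were recovered, with 0 extra. The measured pileups were not tested against counted fragments. Whether a measured peak near the ends of neighbouring genes belongs to one or the other was not tested. Scripts ran in Python 3.11.15 with matplotlib 3.10.9, scipy 1.17.1, pandas 2.3.3 and numpy 2.4.6.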

Additional observations from a re-analysis of the deposited data

How the results depend on the processing

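The count of 38 marked genes stayed 38 with a −log10 q of at least 5, a pileup of at least 20, 2500 bp windows, 200 bp shared and the summit inside the window. It was 37 within 500 bp (70.8% of all genes), where Rad52 dropped out, and 32 with a fold of at least 5 (57.1%), which Fancm, Brca2, Rad51c, Atm, Mus81 and Msh6 missed. Starts marked were 30 in the main setting, 24 with that fold and 31 within 2500 bp, beside 73.3%, 56.2% and 77.1% of all genes. Without members near another coding gene end, 16 of 16 genes and 12 of 12 listed starts were marked, which is fewer because fewer genes entered. Median fold stayed between 6.33 and 6.75 and median pileup between 41.5 and 43. The median width of 1309.5 bp became 1214 bp with a fold of at least 5, 1287.5 bp within 500 bp, 1326.5 bp without neighbours and 1325 bp at listed starts only, an alternative chosen after seeing the data. Wide domains at 10 genes became 14 with a join gap of 0 bp, 2 with 3000 bp, 4 with the widest 2% and 16 with the widest 10%, beside 22.4%, 11.5%, 8.2% and 34.7% of all genes. No paired analysis was possible because there is 1 library and no test. Pileups of 31 to 58 fragments limit the precision of each gene.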

Other observations

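Genes of other repair pathways, listed with the same results known, were marked at similar heights. These heights lie near the median of 42 fragments over all genes with an end peak, so they are not particular to repair genes. All 12 nucleotide excision repair genes had a peak at an end (Wilson interval 75.8 to 100), beside 74.4% of all autosomal protein-coding genes, with a median pileup of 42.5 fragments. Ercc1, a subunit of the nuclease that cuts beside damage, had 61 fragments, and Xpc, a damage sensor, had 56. All 6 further mismatch repair genes had one, led by Msh3 with 51 fragments, and their median fold was 6.99. Of 11 end joining genes 9 had one, led by Polm with 51 and Xrcc4 with 48 fragments. Xrcc6, which encodes a Ku subunit, had no peak at an end or inside, and Trp53bp1 had 1 inside. Of 17 autosomal meiotic recombination genes 15 had one, with a median fold of 7.03 (unmarked genes at 0) and a median pileup of 41 fragments. Neither these nor the 12 nucleotide excision repair genes had a wide domain, beside 19.2% of all genes. Rnf212 had 57 and Dmc1, the meiotic recombinase, 56 fragments, while Spata22 had no peak and Spo11 had 2 inside only.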
